A study of Mus musculus with 32 samples.

Results

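Galectins are lectins that bind β-galactoside sugars on cell surface and lysosomal glycoproteins, and 5 genes of the group are described here from the RNA of mouse spinal cord: Lgals1, Lgals3, Lgals8 and Lgals9, which encode galectins, and Lgals3bp, which encodes a secreted glycoprotein that binds galectin-3. They are 5 of the 42524 genes in the deposited table, and they were selected on their measured levels over the 8 groups of the study. Their differences between genotypes and between ages are therefore given as descriptions, with no test, and only the comparisons of OKN-007 with no treatment are tested for them. The groups given OKN-007 were among those 8 groups, and earlier results, in which no gene passed for OKN-007, were known.

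The study compared 4 mice in each of 8 groups: WT and G93A mice, untreated or given OKN-007, a nitrone compound supplied in the drinking water, at a time labelled 90 days or 155 days. G93A mice carry a human SOD1 gene with the G93A mutation in many copies, develop a motor neuron disease that models amyotrophic lateral sclerosis, and were bred on the C57BL/6J background; the WT mice were their littermates and carry no transgene. The series text words the times as lengths of treatment, while the methods of the study treat them as ages and put the earlier one, at a slightly later age, close to disease onset. Mice of the experimental cohorts were mostly females, and the study states that it used only females for experiments at its higher dose. Its cohorts killed near these ages received that dose, while its RNA methods name neither sex nor dose. Each library came from a piece of whole spinal cord. In this bulk RNA a change in the number of cells of a type and a change in RNA per cell cannot be told apart.

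Galectins have no signal peptide and leave the cell by an unusual route, after which they cross-link glycoproteins on the same or a neighbouring cell; inside the cell, galectin-3, galectin-8 and galectin-9 also bind the sugars that become exposed when a lysosome is damaged. Galectin-1 has a single sugar-binding domain and acts as a dimer, galectin-3 joins such a domain to a flexible tail through which it forms oligomers, and galectin-8 and galectin-9 carry a pair of different domains on the same chain. In the nervous system galectin-3 is best known as a protein of activated microglia and macrophages, galectin-1 of astrocytes and of some neurons, and galectin-9 and galectin-3 binding protein as products of interferon-stimulated cells.

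The promoters of 3 members are shown because the results below turn on these genes and because the letters of known regulatory motifs can be compared between them. The sequences run from 250 bases before to 50 bases after the start site in RefSeq (GRCm38.p6), 5′ to 3′ on the gene's strand, and capitals mark motif matches.
Lgals9, chr11:78984875-78985174, minus strand: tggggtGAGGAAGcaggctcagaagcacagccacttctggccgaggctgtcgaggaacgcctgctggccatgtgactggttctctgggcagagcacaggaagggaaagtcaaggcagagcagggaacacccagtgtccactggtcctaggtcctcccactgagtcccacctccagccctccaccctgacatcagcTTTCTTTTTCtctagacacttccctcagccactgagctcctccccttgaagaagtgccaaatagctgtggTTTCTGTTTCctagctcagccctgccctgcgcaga
Lgals3bp, chr11:118401910-118402209, minus strand: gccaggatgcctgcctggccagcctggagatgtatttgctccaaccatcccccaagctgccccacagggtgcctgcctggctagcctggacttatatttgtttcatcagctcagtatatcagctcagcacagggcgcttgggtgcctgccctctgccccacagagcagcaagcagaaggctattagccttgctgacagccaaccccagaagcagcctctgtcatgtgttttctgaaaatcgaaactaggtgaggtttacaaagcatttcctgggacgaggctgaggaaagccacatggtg
Lgals3, chr14:47373610-47373909, plus strand: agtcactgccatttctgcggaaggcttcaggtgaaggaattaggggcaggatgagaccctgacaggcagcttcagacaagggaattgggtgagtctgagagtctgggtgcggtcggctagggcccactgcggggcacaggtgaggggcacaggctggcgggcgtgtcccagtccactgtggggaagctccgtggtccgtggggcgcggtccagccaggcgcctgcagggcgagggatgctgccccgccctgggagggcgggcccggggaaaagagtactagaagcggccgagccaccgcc
Promoters of 4 members were matched by symbol, those of Lgals3, Lgals3bp, Lgals8 and Lgals9, together with 5 of other galectins and galectin-like genes. The letters of 5 motifs were searched on both strands: the core of the interferon-stimulated response element (GAAA, any 2 bases, then GAAA), AP-1 (TGANTCA), PU.1 (GAGGAAG), the MITF-family E-box (CACGTG) and the GAS element (TTC, any 3 bases, then GAA). The Lgals9 promoter held 2 matches to the response element core, whose first bases stood at -55 and 15 from the start site, and a PU.1 match at -244, and no match overlapped another. Of 32851 RefSeq promoters of the same length, 3.44% held the response element core and 13.6% the PU.1 letters, while AP-1, the E-box and the GAS element were in 7.81%, 7.15% and 8.3% of them. The only other match among the 9 promoters was PU.1 in Lgals4. A match is a string of letters and not a measured site, and its absence says only that these letters are not in the window.

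Total counts per library ran from 19701722 to 30138257 (median 26658755), and 3 counts in the smallest library were worth 0.152 CPM (counts scaled to a common library size). Levels are given as CPM scaled with TMM factors, which lay between 0.959 and 1.06. Each member had at least 26 counts in every mouse. Counting error was not separated from the spread between mice, and can make up much of it where the mice of a group lie close together. The libraries held the markers of spinal cord in each group, among them oligodendrocyte markers at a summed 18800 to 50500 CPM and motor neuron markers at 54.3 to 197 CPM. Albumin (Alb), a liver transcript, was highest in 3 libraries, at 142 CPM in untreated G93A replicate 12 and 86.1 CPM in OKN-007 G93A replicate 15 at 155 days and at 46.4 CPM in OKN-007 WT replicate 6 at 90 days, was at 11.3 to 25.5 CPM in 5 further libraries, and was at most 5.29 CPM in the others. The WT library labelled untreated replicate 3 at 90 days had Schwann cell markers at a summed 1650 CPM. The next highest library, untreated G93A replicate 10 at 90 days, had 388 CPM. The summed level of 6 Hox10 and Hox11 genes, which mark the caudal spinal cord, ran from 4.26 to 82.2 CPM in untreated G93A mice and from 84.1 to 148 CPM in untreated WT mice at 155 days, with 2 of 6 lower by edgeR. With OKN-007 it ran from 22.6 to 67.8 CPM in G93A and from 126 to 166 CPM in WT mice, with 5 of 6 lower, and these levels and the genotype differed together at that age.

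In WT mice Lgals3 was the scarcest of the 5 genes. Per kilobase of exon, untreated WT mice at 155 days had 33.2 ± 9.91 CPM of Lgals1, 13.5 ± 1.1 of Lgals8, 5.89 ± 0.753 of Lgals3bp, 5.07 ± 0.438 of Lgals9 and 0.983 ± 0.468 of Lgals3 (mean ± SD, n = 4). The mice of Lgals3bp and Lgals9 overlapped on this scale, and those of every other pair of neighbours in the order did not. Untreated G93A mice of the same age had another order, with 87.7 ± 19 CPM per kilobase of Lgals1, 44.3 ± 11.5 of Lgals3, 41.8 ± 14.7 of Lgals3bp, 14.2 ± 0.4 of Lgals8 and 11.9 ± 2.49 of Lgals9. There Lgals3 and Lgals3bp overlapped, as did Lgals8 and Lgals9, while Lgals1 stood above Lgals3 and Lgals3bp above Lgals8 in all mice. At 90 days the untreated WT mice had the order Lgals1, Lgals8, Lgals9, Lgals3bp and Lgals3, with the means of Lgals9 and Lgals3bp at 5.3 and 4.97 CPM per kilobase.

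**Figure D1:**
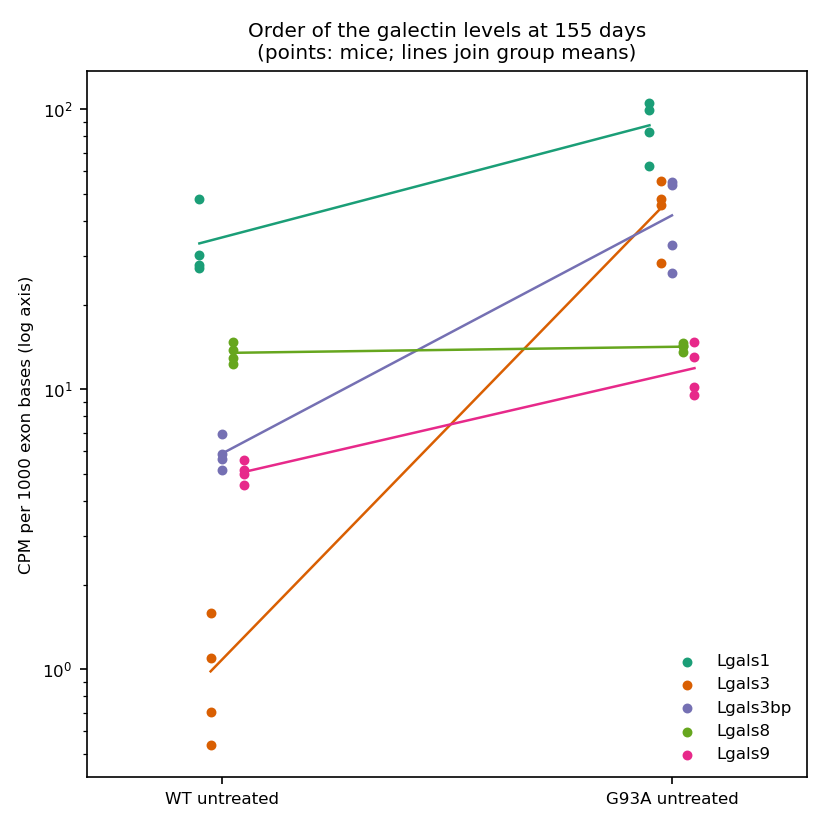
CPM per kilobase of exon on a log axis for the 5 genes in untreated WT and untreated G93A mice at 155 days, with a point for each mouse and lines joining the group means. Lgals3 is at the bottom in WT mice and beside Lgals3bp in G93A mice, and the line of Lgals8 is almost flat.

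Lgals3, the galectin of activated microglia and macrophages, was far higher in G93A than in WT mice at 155 days. Its level in the untreated WT mice was 2.05, 2.95, 0.993 and 1.31 CPM and in the untreated G93A mice 84.7, 89.1, 103 and 52.3 CPM. In the mice given OKN-007 it was 1.63, 1.83, 2.31 and 1.38 CPM in WT and 96.4, 70, 75.9 and 77 CPM in G93A mice. The groups were far apart in both arms, and the lowest G93A mouse, untreated replicate 12, was also the mouse with the most albumin RNA. The log2 fold change of G93A over WT was 5.53 (SE 0.253), or 46.3-fold, in untreated mice and 5.52 (SE 0.252), or 45.7-fold, in OKN-007 mice. Without the 3 libraries highest in albumin it was 5.7 and 5.52, and with the caudal Hox level as a covariate 5.3 and 5.27.

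Lgals3 was also higher in G93A mice at 90 days. Untreated WT mice had 1.84, 3.48, 3.42 and 4.11 CPM and untreated G93A mice 10.2, 22.9, 20.4 and 4.75 CPM. With OKN-007 the WT mice had 5.79, 2.84, 3.18 and 4.52 CPM and the G93A mice 11.3, 16.8, 13.4 and 12.1 CPM. Each G93A mouse was above every WT mouse of its arm, with untreated replicate 12 only slightly so, and across arms that mouse lay below 1 treated WT mouse. The log2 fold change was 2.18 (SE 0.379), or 4.54-fold, in untreated and 1.72 (SE 0.373), or 3.3-fold, in OKN-007 mice. Without the WT library with Schwann cell markers the untreated value was 2.21, and without G93A replicate 12 it was 2.48. Without untreated G93A replicate 10 that value was 1.87. This mouse had the most Lgals3 of its group and the next highest level of Schwann cell markers. When both treatments were averaged, a contrast chosen after the levels were seen, the log2 fold change was 1.95 (SE 0.266).

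In WT mice the level of Lgals3 was not higher at 155 than at 90 days. Untreated WT mice averaged 3.21 ± 0.968 CPM at 90 and 1.83 ± 0.87 CPM at 155 days, a log2 fold change of -0.84 (SE 0.406), with overlap between the ages. OKN-007 WT mice had 2.84 to 5.79 CPM at 90 and 1.38 to 2.31 CPM at 155 days. The G93A difference was larger at 155 than at 90 days by 3.35 (SE 0.498) on the log2 scale in untreated mice. In OKN-007 mice it was larger by 3.75 (SE 0.493). Both values include the lower WT levels at 155 days.

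Lgals3bp, whose product is a secreted partner of galectin-3, reached the highest CPM of the 5 genes in G93A mice at 155 days. The untreated WT mice had 16.1, 19.7, 16.7 and 14.6 CPM and the untreated G93A mice 93, 152, 157 and 74.1 CPM. With OKN-007 the levels were 13.1, 15.4, 14 and 16.7 CPM in WT and 118, 127, 116 and 88.7 CPM in G93A mice. The genotypes did not overlap in either arm, and the untreated G93A mice fell into a higher and a lower pair. The log2 fold change was 2.84 (SE 0.198), or 7.17-fold, in untreated and 2.96 (SE 0.199), or 7.76-fold, in OKN-007 mice. At 90 days the G93A mice, at 12.5 to 19.9 CPM untreated and 12.8 to 18.7 CPM with OKN-007, overlapped the WT mice, at 12.7 to 16.5 and 11.3 to 13 CPM. The log2 fold changes there were 0.16 (SE 0.147) and 0.36 (SE 0.148).

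Lgals1, a galectin with a single sugar-binding domain, was higher in G93A mice at 155 days by a smaller factor. Untreated WT mice had 25, 43.3, 24.4 and 27.2 CPM and untreated G93A mice 75.3, 90, 94.8 and 56.7 CPM. OKN-007 mice had 27.8, 26.9, 33.9 and 28.6 CPM in WT and 76.4, 78.3, 65.4 and 58.9 CPM in G93A. All G93A mice were above all WT mice, and WT replicate 2, at 43.3 CPM, stood apart from its group. The log2 fold change was 1.42 (SE 0.172), or 2.67-fold, in untreated and 1.29 (SE 0.171), or 2.44-fold, in OKN-007 mice, and without WT replicate 2 the untreated value was 1.66. At 90 days the untreated G93A mice, at 36.7, 66.4, 54.7 and 45.2 CPM, overlapped the WT mice, at 34.3, 47.9, 37.9 and 31.4 CPM, and the log2 fold change was 0.43 (SE 0.16). In the OKN-007 arm it was 0.16 (SE 0.16).

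Lgals9, a tandem-repeat galectin that binds the inhibitory receptor TIM-3 of lymphoid and myeloid cells, was higher in G93A mice at 155 days as well. The untreated WT mice had 9.72, 12, 10.6 and 11.1 CPM and the untreated G93A mice 21.7, 27.8, 31.7 and 20.3 CPM. The OKN-007 mice had 9, 8.96, 8.7 and 9.01 CPM in WT and 27.9, 26, 25.5 and 21.6 CPM in G93A. Again no G93A mouse overlapped the WT mice. The log2 fold change was 1.24 (SE 0.123), or 2.36-fold, in untreated and 1.54 (SE 0.124), or 2.91-fold, in OKN-007 mice. At 90 days it was 0.06 (SE 0.13) and 0.15 (SE 0.13), with G93A mice at 9.67 to 14.6 CPM and WT mice at 9.09 to 12.2 CPM over both arms.

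Lgals8, a tandem-repeat galectin that recruits autophagy receptors to damaged vesicles, did not follow the other members. At 155 days the untreated WT mice had 54.7, 47.5, 50.9 and 45.5 CPM and the untreated G93A mice 50.3, 52.9, 52.8 and 53.7 CPM. OKN-007 WT mice lay between 48.3 and 54.9 CPM and OKN-007 G93A mice between 47.5 and 51.6 CPM. The genotypes overlapped, and the log2 fold changes were 0.09 (SE 0.0678, 95% interval -0.05 to 0.24) and -0.01 (SE 0.0677, interval -0.15 to 0.13). At 90 days they were -0.03 (SE 0.0691) and 0.05 (SE 0.0692). Its level differed between the ages instead, from 42.7 ± 2.45 CPM at 90 to 49.6 ± 4.07 CPM at 155 days in untreated WT mice. The log2 difference was 0.22 (SE 0.067) with no overlap, as in 11.6% of 19829 genes. It was 0.14 without WT replicate 4 at 90 days and also without WT replicate 1 at 155 days. Mice of the ages were different animals, and 24.9% of genes passed between them in untreated WT mice with edgeR. Oligodendrocyte markers summed to 30800 to 37400 CPM at 90 and 20000 to 21900 CPM at 155 days in untreated WT mice. Age and other differences between these groups cannot be told apart. In the GENCODE M21 annotation 155 exon bases of Lgals8 overlap Heatr1 on the opposite strand, and reads there can be told apart only if the counting used the strand, which is not stated in the sources used here.

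**Figure D2:**
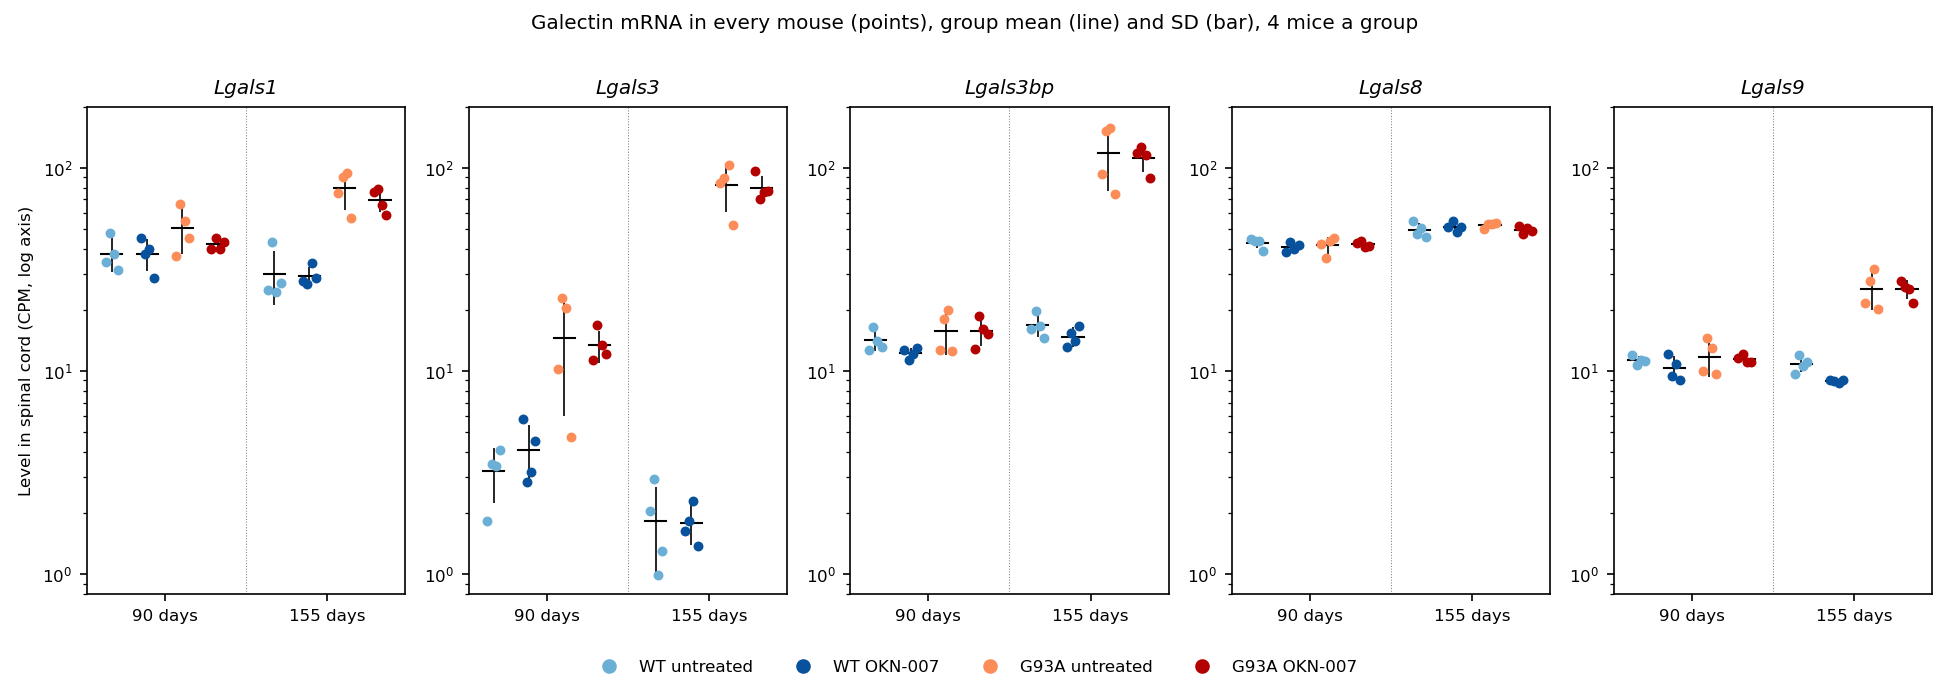
Level of each gene in CPM on a log axis, with a point for each of the 4 mice in a group, a line at the group mean and a bar for its SD, for the 4 kinds of mice at 90 and at 155 days. Within each treatment arm, Lgals3 separates the genotypes at both ages, Lgals1, Lgals3bp and Lgals9 at 155 days, and Lgals8 at neither.

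At 155 days 4 of the 5 members, all but Lgals8, did not overlap between genotypes, in each arm. Over all 18675 genes tested, 17.4% in untreated and 22.6% in OKN-007 mice had G93A mice all above WT mice. Lgals3 was the only member without overlap at 90 days, where 1.19% of 18899 genes in untreated and 1.58% in OKN-007 mice had no overlap in that direction. Since levels over these groups chose the members, nothing is read from these shares.

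The untreated G93A mice at 155 days stood in the same order in Lgals1, Lgals3, Lgals3bp and Lgals9, with replicate 12 lowest, then 9, 10 and 11. The summed level of 7 microglial markers had that order too, at 1310, 1520, 2090 and 2350 CPM, and 3 neuron markers had the reverse order, at 1830, 1530, 1320 and 1210 CPM. In OKN-007 G93A mice the members did not share an order. There the microglial sum was 1960, 1790, 1770 and 1610 CPM and the neuron sum 1080, 1250, 1340 and 1580 CPM in replicates 13 to 16. Lgals9 followed the microglial order, Lgals1 and Lgals3bp were highest in replicate 14, and Lgals3 was lowest in that mouse. In untreated WT mice of that age the sum was 303 to 378 CPM, and the 8 markers of disease-associated microglia summed to 184 to 228 CPM in WT and 1040 to 1950 CPM in G93A mice. All 7 microglial markers and all 8 markers of disease-associated microglia rose in untreated G93A mice, with medians of 2.08 and 5.66 on the log2 scale. The log2 fold changes of Lgals3 and Lgals3bp lay between these medians, and those of Lgals1, Lgals8 and Lgals9 were below both. The 7 astrocyte markers summed to 4610 to 5120 CPM in WT and 13600 to 17100 CPM in G93A mice, with 6 of 7 higher. All 3 neuron markers and 5 of 6 motor neuron markers fell, with medians of -0.55 and -0.76. Markers of border or infiltrating macrophages, at 3.69 to 4.43 CPM in WT and 4.84 to 7.59 CPM in G93A mice, rose in 1 of 5 tested, and T or NK cell markers summed to 0.39 to 0.993 CPM in untreated WT and 1.37 to 1.8 CPM in untreated G93A mice. At 90 days the microglial sum was 348 to 401 CPM in untreated WT and 357 to 549 CPM in untreated G93A mice. With edgeR 0 of the 15 microglial markers and 0% of all genes passed there, so nothing is read from that count. The median log2 fold change in untreated mice was 0.24 for the 7 microglial and 1.01 for the 8 disease-associated markers, against 0 over all genes. In OKN-007 mice these medians were 0.28 and 0.89, against 0.01. What part these cells have in the galectin levels was not tested.

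OKN-007 did not change any member detectably. At 155 days in G93A mice the log2 difference of treated from untreated mice was -0.17 for Lgals1 (95% interval -0.52 to 0.18), -0.03 for Lgals3 (-0.42 to 0.36), -0.07 for Lgals3bp (-0.45 to 0.3), -0.07 for Lgals8 (-0.21 to 0.07) and 0.01 for Lgals9 (-0.24 to 0.25). Each had an adjusted p of 1 by edgeR's quasi-likelihood test, and the treated and untreated mice overlapped. The intervals leave room for a fall in Lgals1 to 0.698 of the untreated level, in Lgals3 to 0.748 and in Lgals3bp to 0.732. Without the 3 libraries highest in albumin the differences of Lgals1, Lgals3 and Lgals3bp were -0.28, -0.18 and -0.27. In WT mice at 155 days 4 members differed by -0.19 to 0.04, and Lgals9 by -0.29 (interval -0.56 to -0.03, adjusted p of 1 by edgeR). Its treated WT mice, at 8.7 to 9.01 CPM, were all below the untreated ones, at 9.72 to 12 CPM, as in 0.862% of genes.

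At 90 days in G93A mice the differences ran from -0.27 for Lgals1 (interval -0.6 to 0.07) to 0.01 for Lgals8, with adjusted p of 0.837 to 0.995 by edgeR. In WT mice they ran from -0.21 for Lgals3bp (interval -0.52 to 0.11) to 0.34 for Lgals3 (-0.5 to 1.17), with adjusted p of 0.993 to 0.999. The genotype by treatment term was widest for Lgals3 at 90 days, at -0.46 (interval -1.56 to 0.65), and was 0.3 for Lgals9 at 155 days (-0.06 to 0.66). All 10 of these terms had an adjusted p of 1. Over the 6 comparisons with OKN-007 or its interaction, 0 members and 0% of genes passed with edgeR, 1 value was past an unadjusted p of 0.05, that of Lgals9 in WT mice at 155 days, where 2.94% of genes were, and DESeq2 passed 0 members.

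**Figure D3:**
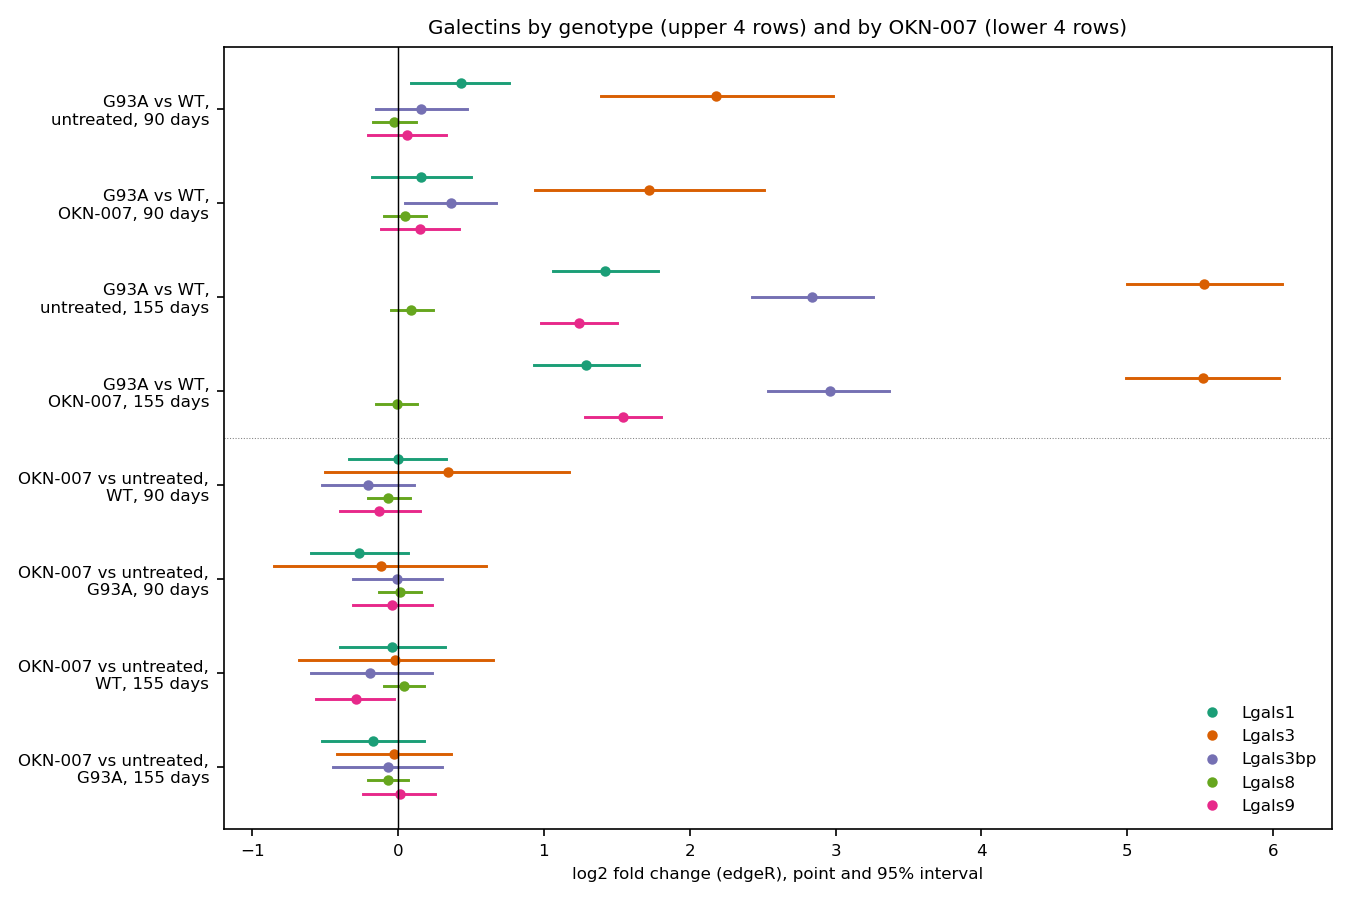
Log2 fold change (x axis, point with 95% interval) of each member in 4 comparisons of G93A with WT mice and in 4 of OKN-007 with untreated mice. The genotype values reach 5.53 for Lgals3 at 155 days, while all OKN-007 intervals but that of Lgals9 in WT mice at 155 days include 0.

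Other galectins and galectin-like genes were scarce in this tissue apart from Lgalsl, which encodes a galectin-related protein. Lgalsl averaged 42.5 CPM in untreated WT and 47.5 CPM in untreated G93A mice at 155 days, a log2 fold change of 0.17 (SE 0.119, adjusted p = 0.263 by edgeR). Lgals2, a galectin of the gut and of macrophages, had 0.557 to 0.824 CPM in untreated WT and 1.39 to 1.87 CPM in untreated G93A mice, and rose by 1.39 (SE 0.293, adjusted p = 0.000942 by edgeR). Grifin, known from the lens, had 0.174 CPM in WT and 0.664 CPM in G93A mice and rose by 1.87 (SE 0.486, adjusted p = 0.00472), on few counts and with overlap. Lgals4, a galectin of the intestinal epithelium, had 3.39 to 5.08 and 4.45 to 9.15 CPM, and its log2 fold change of 0.51 (SE 0.216) had an adjusted p of 0.0678 in untreated and, at 0.54, of 0.0478 in OKN-007 mice. A further listed name, Lgals6, was not matched to a gene here. Lgals7 and Lgals12 were too low to be tested in any comparison. At 90 days Lgals2, Lgals4 and Lgalsl were tested and 0 of 3 passed with edgeR in either arm, also at an unadjusted p of 0.05.

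The gene lists below were chosen with earlier results of these data known, and their counts beside the shares of all genes are descriptions. Genes for the glycoproteins that galectins bind on or in cells rose in number with the members. Of 17 such counter-receptors tested in untreated mice at 155 days, 13 rose, 1 fell and 3 did not pass. Their median log2 fold change was 0.91 against 0 over all genes, of which 39.5% passed in either direction and 21.3% as higher. Trem2, a lipid receptor of microglia that galectin-3 binds, rose by 3.53 (SE 0.205, adjusted p = 2.11e-10 by edgeR), from 7.46 to 85.1 CPM. Ptprc, the leukocyte phosphatase CD45 that galectin-1 binds, rose by 3.23 (SE 0.15), Lag3, a checkpoint receptor and galectin-3 ligand, by 3.17 (SE 0.228), and Cd44, the hyaluronan receptor, by 2.75 (SE 0.147). Havcr2, which encodes the galectin-9 receptor TIM-3 and was chosen for mention after its values were seen, rose by 2.73 (SE 0.19), from 3.53 to 23.4 CPM. The gene that fell was L1cam, a neuronal adhesion molecule, by -0.39 (SE 0.109, adjusted p = 0.0076 by edgeR). Trem2, Ptprc, Lag3 and Havcr2 are genes of microglia and other leukocytes, and the microglial markers given above moved with them. In OKN-007 mice 13 of 17 rose and 1 fell, with a median of 1.01, where 41.5% of all genes passed and 23.3% as higher. At 90 days 0 of 16 and 0% of all genes passed in either arm with edgeR. At an unadjusted p of 0.05 there were 3 in untreated mice, where 5.96% of all genes were past it, and 4 in OKN-007 mice, where 3.95% were.

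The enzymes that build or cap galectin ligands had a lower median than the counter-receptors. Of 12, 7 rose, 1 fell and 4 did not pass in untreated mice at 155 days, and the median was 0.24, where 39.5% of all genes passed and 21.3% as higher. Gcnt1, which starts the branched O-glycans that galectin-1 reads, rose by 2.36 (SE 0.201, adjusted p = 2.62e-08 by edgeR), and B4galt1, which adds the galactose of N-acetyllactosamine, by 1.53 (SE 0.161, adjusted p = 4.35e-07). St6gal1, whose α2,6-linked sialic acid blocks the binding of galectin-1, rose by 0.65 (SE 0.0981), and Man2a1, a mannosidase of N-glycan processing, by 0.39 (SE 0.129). Mgat3, which adds the bisecting sugar and limits branching, fell by -0.34 (SE 0.0982, adjusted p = 0.0103 by edgeR). Mgat5, which makes the branched N-glycans that galectin-3 favours and was also picked after its values were seen, had a log2 fold change of -0.12 (SE 0.0862, adjusted p = 0.282). In OKN-007 mice 7 rose and 1 fell as well, where 41.5% of all genes passed and 23.3% as higher.

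Genes of the response to damaged lysosomes, where galectin-3 and galectin-8 act inside the cell, had a median near that of all genes. Of 17 tested, 2 rose, 2 fell and 13 did not pass in untreated mice at 155 days, or 23.5% in either direction against 39.5% of all genes, and the median was 0. Tfeb, the master transcription factor of lysosome genes, rose by 0.39 (SE 0.103, adjusted p = 0.00532 by edgeR) and Gabarap, an autophagosome protein, by 0.4 (SE 0.124). Trim16, a ubiquitin ligase that works with galectin-3, fell by -0.51 (SE 0.16, adjusted p = 0.0154), and Tbk1, a kinase of autophagy receptors, by -0.19 (SE 0.0737, adjusted p = 0.0451). Calcoco2, the receptor that galectin-8 recruits in human cells, was at 0.173 CPM in WT and 0.144 CPM in G93A mice and too low to be tested. In OKN-007 mice 3 of the 17 rose and 3 fell, or 35.3% against 41.5% of all genes.

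Interferon-stimulated genes were listed because Lgals9 and Lgals3bp are themselves known to be induced by interferon. All 10 rose in untreated G93A mice at 155 days and all 10 in OKN-007 mice, and the median was 1.96 in each arm, where 21.3% and 23.3% of all genes passed as higher. Bst2, a surface protein that tethers virus particles, rose by 3.06 (SE 0.21, adjusted p = 1.6e-09 by edgeR), Usp18 and Isg15, the protease and the ubiquitin-like modifier of the ISG15 system, by 2.36 (SE 0.279) and 2.34 (SE 0.25), and Irf7, a transcription factor of the response, by 2.28 (SE 0.222). Whether interferon had a part in the levels of Lgals9 and Lgals3bp was not tested. At 90 days 0 of 10 passed with edgeR in either arm, and 0 in untreated and 3 in OKN-007 mice were past an unadjusted p of 0.05, against 5.96% and 3.95% of all genes. Across the 4 lists 0 genes passed for OKN-007 in G93A mice at either age with edgeR, and at an unadjusted p of 0.05 there was 1 counter-receptor at 155 days and 1 gene each of the lysosome and interferon lists at 90 days, where 4.04% and 5.56% of all genes were past it.

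**Figure D4:**
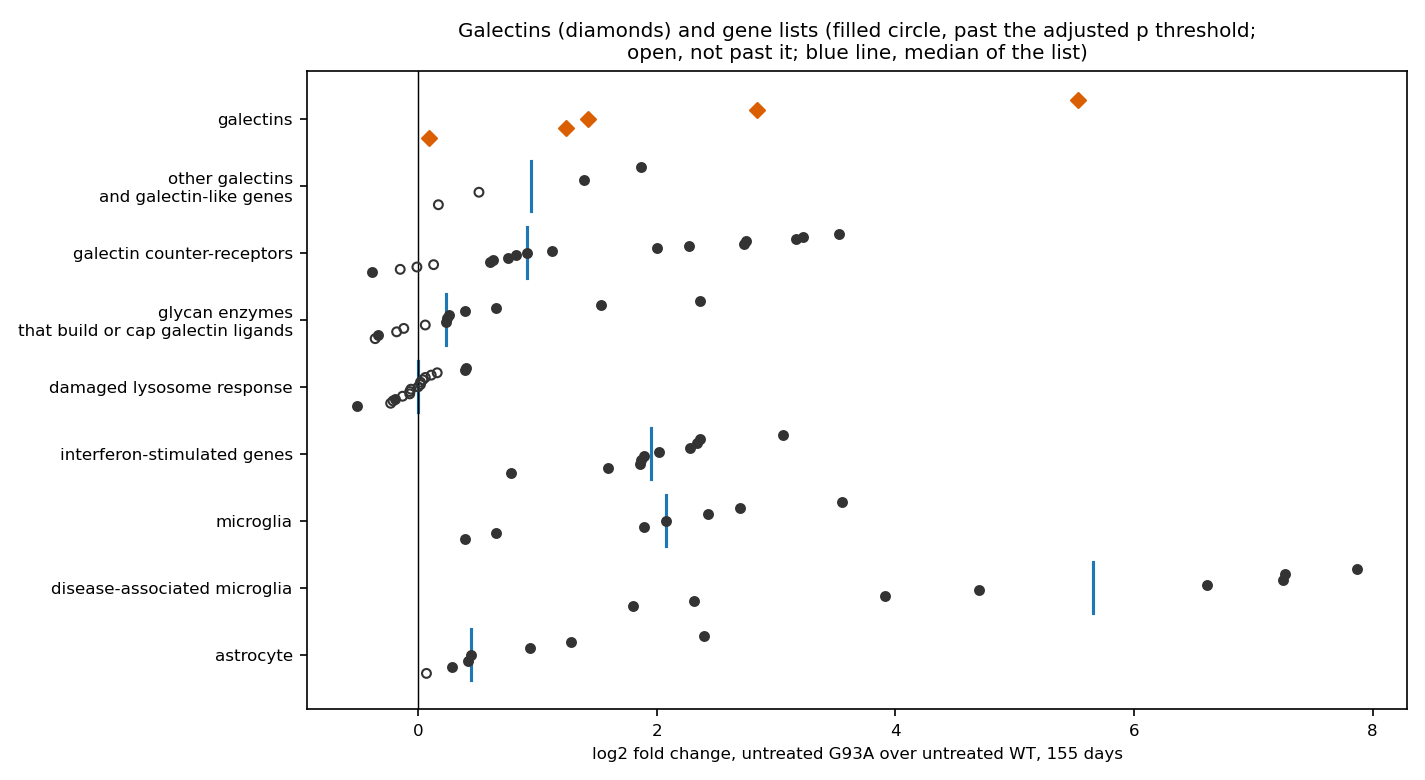
Log2 fold change of untreated G93A over untreated WT mice at 155 days (x axis) for the members, as diamonds, and for each gene of the lists, as circles that are filled where edgeR's adjusted p was under 0.05, with a blue line at each list's median. The medians are 0.91 for counter-receptors, 0.24 for glycan enzymes, 0 for the damaged lysosome response and 1.96 for interferon-stimulated genes.

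The pattern of each member over the 8 groups was compared with that of 15499 other genes, by the root mean square difference of group means of log2(CPM + 1) centred on each gene's own mean. Nearest to Lgals3 were Lpl, the lipoprotein lipase of disease-associated microglia, at 0.415, Vim, the intermediate filament vimentin, at 0.485, and Mmp12, the macrophage elastase, at 0.536, where the median over all genes was 1.88. No gene came as near to Lgals3 as to the other members, and the panel of its profile shows its lower WT and higher 90-day G93A values beside those of Lpl and Vim. Lgals3bp had Hmox1, the heme-degrading enzyme, at 0.0794, Igf1, a growth factor, at 0.134 and Lilr4b, an inhibitory myeloid receptor, at 0.139. Lgals1 had Sntg2, a syntrophin, at 0.0739, Rhoc, a small GTPase, at 0.0816 and Gpx1, a glutathione peroxidase, at 0.0858. For Lgals9 the nearest were Sdc1, a heparan sulfate proteoglycan, at 0.0531, Elk3, a transcription factor, at 0.0569 and Dap, a negative regulator of autophagy, at 0.0593. Lgals8 lay closest to Hspa9, the mitochondrial heat shock protein mortalin, at 0.023, Fbxl20 at 0.0265 and Erlec1, a lectin of the endoplasmic reticulum, at 0.027. The 8 groups share libraries between all genes, and many genes with a single step at 155 days lie near each other on this measure. The 1 added to CPM also shrinks the differences of scarce genes. Lilr4b, at a mean of 2.09 CPM, had a log2 fold change of 5.29 in untreated mice at 155 days, against 2.84 for Lgals3bp. Mmp12, at a mean of 4.71 CPM, had 7.73, against 5.53 for Lgals3.

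**Figure D5:**
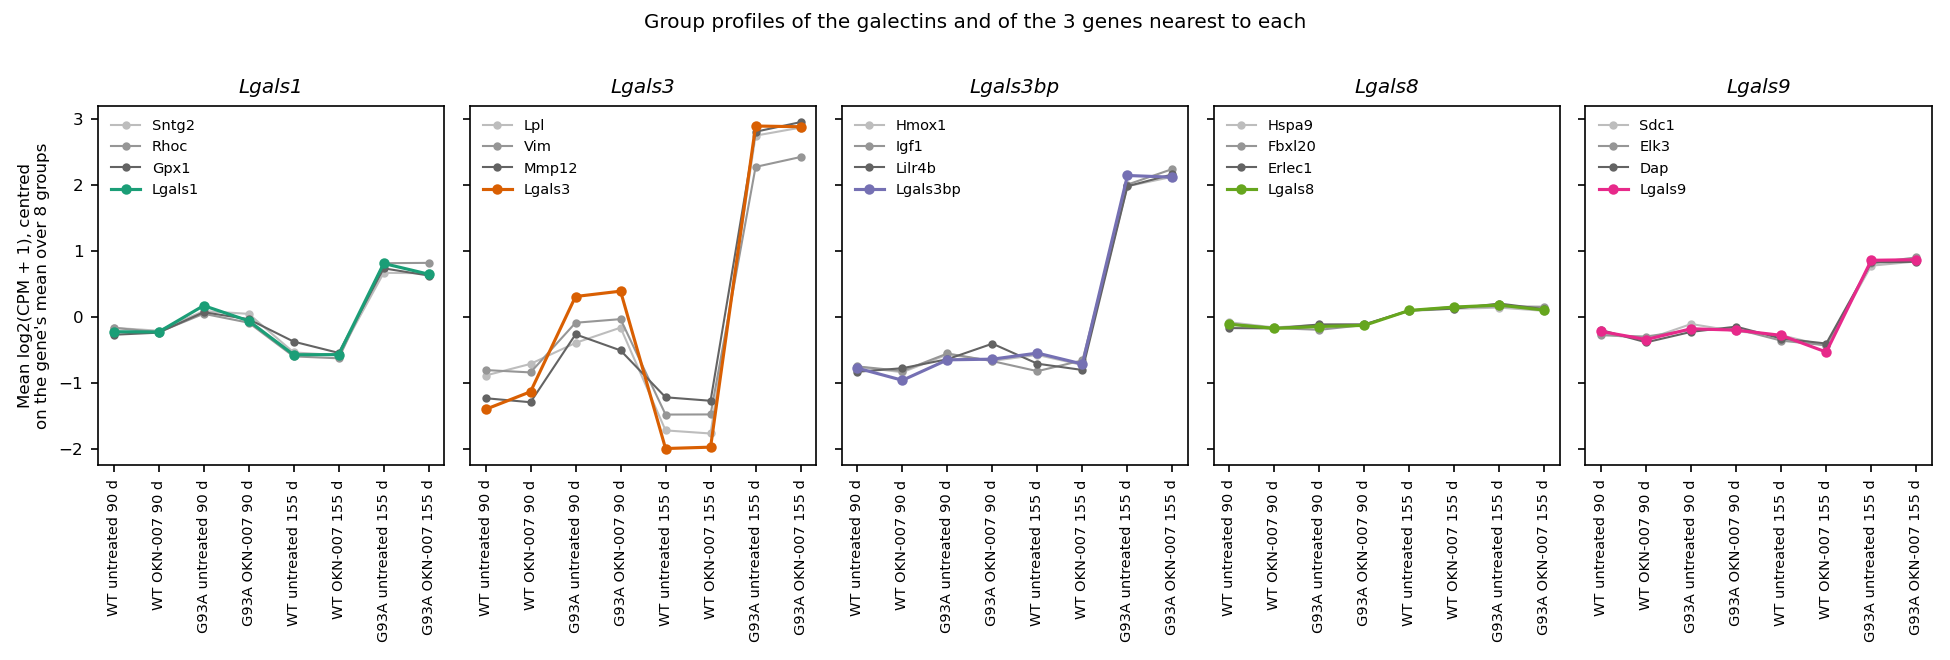
Mean log2(CPM + 1) of each group, centred on the gene's mean over the 8 groups (y axis), for each member in colour and its 3 nearest genes in grey, with the groups along the x axis. Lgals1, Lgals3bp and Lgals9 step up in the G93A groups at 155 days only slightly apart from their neighbours. Lgals3 also steps up in the G93A groups at 90 days, and its neighbours Lpl, Vim and Mmp12 do so by smaller amounts.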

How the data were processed

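RNA of spinal cord from 32 mice was sequenced as stranded mRNA libraries, and the authors deposited a table of raw read counts per gene, with a column for each mouse and 0 columns of other samples. The methods of the study name STAR, HTSeq, GRCm38 and GENCODE M10, whereas the submitters' processing notes name FastQC, STAR, featureCounts and edgeR and other builds. Since 1306 gene identifiers lie above the highest of GENCODE M21, the annotation was later than M10, and no gene coordinates are given here as those of the table. Symbols were matched for 41203 of 42524 identifiers (96.9%), and exon lengths came from GENCODE M21.

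Counts were tested with edgeR 4.0.16 in R 4.3.3 (limma 3.58.1): filterByExpr, TMM, glmQLFit and glmQLFTest, two-sided, with Benjamini-Hochberg adjustment over all genes tested and a threshold of 0.05. The 16 mice of an age were fitted as 4 groups, and all 32 mice as 8 groups for differences between ages. The SE is the log2 fold change divided by the square root of F. DESeq2 1.42.0 was an alternative, as were other scalings, filters and sample sets and leaving out each mouse. Replicates are separate mice per the labels, and no 2 libraries of a group agreed within sampling noise. Scripts were tested on simulated data.

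The members, gene lists and tests were chosen with earlier results of these data known. Other galectins, the 3 nearest profiles of each member and the 4 largest changes past the threshold in each list were named by rule, and other genes named were chosen after their values were seen.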

Additional observations from a re-analysis of the deposited data

Results flagged for a closer look

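Lgals1 in untreated WT mice at 155 days had 1 mouse far from the others, replicate 2 at 43.3 CPM, where the nearest mouse was at 27.2 CPM. Lgals9 in OKN-007 WT mice at 155 days had its lowest mouse, replicate 7, at 8.7 CPM, apart from 3 mice that lay very close together. These were 2 of 40 groups checked against Dixon's critical value, and chance gives about 2.

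The log2 difference between G93A and WT mice was larger at 155 than at 90 days in 4 members. In untreated mice the change was 0.98 for Lgals1, 3.35 for Lgals3, 2.68 for Lgals3bp and 1.17 for Lgals9. In OKN-007 mice it was 1.1, 3.75, 2.57 and 1.36 in the same order. The members were selected on levels over these groups, so the values describe them and test nothing.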

How the results depend on the processing

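With any 1 mouse left out, the log2 difference of untreated G93A from WT mice at 155 days ran from 1.32 to 1.66 for Lgals1, 5.33 to 5.85 for Lgals3, 2.68 to 3.01 for Lgals3bp and 1.12 to 1.33 for Lgals9, and for Lgals3 at 90 days from 1.87 to 2.48. These describe members selected on the same levels. With 4 mice in a group and wide intervals, small effects of OKN-007 were not detectable.

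The counts of genes past the threshold, 0 in the fits reported, moved without a filter on low counts to 39 for G93A against WT in untreated and 24 in OKN-007 mice at 90 days. They also moved to 17 for OKN-007 in G93A and 10 in WT mice at 155 days, to 8 and 14 at 90 days, and to 8 and 3 for the interaction at 155 and 90 days. DESeq2 gave 16 and 3 genes for G93A against WT at 90 days in untreated and OKN-007 mice, and 2 for OKN-007 in WT mice and 2 for the interaction at 155 days. A fit of only the groups compared gave 3 for the OKN-007 arm at 90 days. A fit of all 32 mice gave 1 for untreated mice at 90 days, 2 for OKN-007 in WT mice and 1 for the interaction at 155 days. The cause was not tested.

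Leaving out 1 mouse at a time, the counts ran from 6147 to 7577 for G93A against WT in untreated and from 6537 to 7599 in OKN-007 mice at 155 days. They ran from 0 to 4 in untreated mice at 90 days (4 without G93A replicate 12), from 0 to 3 for OKN-007 in WT mice and from 0 to 1 for the interaction at 155 days (both without untreated WT replicate 4), and were 0 to 0 for the other OKN-007 comparisons. For the change between ages they ran from 3219 to 4865 in untreated and 3506 to 4741 in OKN-007 mice, and for age in WT mice from 3115 to 6035, the lowest without untreated WT replicate 4 at 90 days.

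Signs turned in OKN-007 differences and interactions, none of which passed the test, and under 1 alternative each in Lgals8 between genotypes in OKN-007 mice at 155 days (-0.01 to 0.03), Lgals8 in untreated mice at 90 days (-0.03 to 0.03) and Lgals9 in untreated mice at 90 days (0.06 to -0.06). For Lgals9 in G93A mice at 155 days (0.01) the value was 0 with DESeq2 size factors, with a minimum of 10 counts, with only the groups compared, with DESeq2 and with all 32 mice, and -0.1 without the 3 libraries highest in albumin. For Lgals3 in WT mice at 155 days (-0.02) it was 0 without a filter, with a minimum of 10 counts and without those libraries, and 0.08 with the caudal Hox covariate, which gave 0.04 in G93A mice (-0.03). Lgals3bp had an interaction at 155 days of -0.1 without those libraries (0.11) and, in G93A mice at 90 days (-0.01), values of 0.04 without a filter and 0.01 with the Hox covariate. At 90 days Lgals9 in G93A mice (-0.04) was 0 in both of these, Lgals1 in WT mice (0) was -0.01 without a filter, 0.02 with the covariate and 0.02 without those libraries, and Lgals8 in G93A mice (0.01) was 0 with a minimum of 10 counts, with only the groups compared and with DESeq2, and -0.02 with the covariate. The alternative without those libraries was added after the data were seen.

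Leaving out 1 mouse, the OKN-007 differences in WT mice at 155 days ran from -0.13 to 0.21 for Lgals1, -0.21 to 0.31 for Lgals3 and 0 to 0.09 for Lgals8, and in WT mice at 90 days from -0.1 to 0.12 for Lgals1. In G93A mice at 155 days they ran from -0.2 to 0.1 for Lgals3, -0.24 to 0.09 for Lgals3bp and -0.09 to 0.13 for Lgals9. In G93A mice at 90 days they ran from -0.42 to 0.19 for Lgals3, -0.11 to 0.14 for Lgals3bp, -0.05 to 0.04 for Lgals8 and -0.13 to 0.08 for Lgals9. The interaction ran from -0.34 to 0.18 for Lgals3 and -0.06 to 0.27 for Lgals3bp at 155 days, and from 0 to 0.21 for Lgals9 at 90 days.

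Mice of the 2 ages share replicate numbers, but the 16 same-numbered pairs correlated at -0.222 to 0.26 with 3 over 0.1, so the numbers were not read as pairing. With the replicate block the change between ages passed in 4197 genes in untreated and 4624 in OKN-007 mice and age in WT mice in 4824, and Lgals3 was 3.51 and 3.73, Lgals1 1.01 and 1.08, Lgals3bp 2.63 and 2.57 and Lgals9 1.17 and 1.34.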
